A study of Homo sapiens with 9 samples.

Results

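Prostaglandins are lipid signals that cells make from arachidonic acid, and 10 human genes that make them, carry them, break them down or sense them are described here in SK-N-AS cells. They were listed by name as one pathway, of 19775 genes read by the array, and the list was drawn up because HPGD signal was higher late and PTGFR signal was lower by 48 h. Every probe set of these genes was used, 20 in all, and 19 of them passed a filter on low signals. SK-N-AS is an established human neuroblastoma line, grown here in serum-containing medium. In 1 series, here full-length cells, NRSF was over-expressed whole from the construct RE-EX1; in another, here truncated cells, a truncated NRSF was over-expressed from HZ4; the third was untreated. NRSF, the product of REST, is a zinc finger protein that binds the RE1 element and represses neuronal genes. Each series was read at 0, 24 and 48 h on 1 array per time point, and the 0 h arrays of the construct series are labelled as baselines. The series text mentions triplicates within each of 3 batches, but no label gives an array's batch or says whether RNA was pooled, and how the constructs were delivered is not stated.

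Prostaglandin synthesis starts when a phospholipase frees arachidonic acid from membranes. The cyclooxygenases PTGS1 and PTGS2 turn it into prostaglandin H2, and terminal synthases make the final products, such as prostaglandin E2. The signal ends when SLCO2A1 carries the prostaglandin into a cell and the dehydrogenase HPGD oxidises it there, and it is sensed outside by G protein-coupled receptors, among them PTGER2 and PTGER4 for prostaglandin E2 and PTGFR for prostaglandin F2 alpha. PTGS1 is known as the steady enzyme and PTGS2 as the inducible one, and PTGS2 is often studied in neuroblastoma.

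The values are array signals, linear units that the authors scaled to a common level. The precision of every value is limited by the number of arrays. A floor was set at a signal of 8.266, and differences are on the log2 scale after that floor. Across genes the arrays had a median correlation of 0.922 to 0.931 with each other, except the truncated NRSF array at 24 h with 0.909. Where leaving it out ended a call, the value without it is given beside the result. Some uncalled values also moved by over 1.5 times. Without it the 24 h differences were −0.03 for PLA2G4A, −0.05 for PTGES, −0.53 for SLCO2A1 and −0.32 for PTGER2. Genes were compared across the 3 series with limma, using the series as blocks, and a gene was called at a Benjamini-Hochberg adjusted p under 0.05 over 13799 genes. No label says that arrays came from separate cultures of 1 group. The p-values in time thus rest on the spread of the change in time between the 3 series. For each gene limma pools that spread with genes of similar signal. The standard error can thus be smaller than the gene's own series would give. REST, the gene of NRSF, gave 171.1, 268.3 and 273.5 over the 3 times for full-length cells, 162, 323.1 and 341.6 for truncated cells and 177.2, 444.7 and 260.3 for untreated cells. Its signal was thus higher after 0 h in all 3 series and highest in untreated cells at 24 h, so it does not check the labels of the construct series. Of 11 sympathoadrenal markers 8 passed the filter, GATA3 among them at 1346 to 1912, while TH and DBH did not, and all 8 mesenchymal markers passed. Of 26 markers of epithelial, blood, mast, endothelial, Schwann and melanocyte cells 6 passed, KRT18 with the highest signals. In bulk RNA, fewer cells that express a gene and less RNA per cell cannot be told apart.

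The 250 bases before the start of PTGS2, HPGD and PTGFR are shown because these are the members whose signal differed most between 48 and 0 h. They are RefSeq sequences of build GRCh38.p14, 5′ to 3′ on the gene's strand, and capitals mark matches on either strand to the TATA box TATAAA, the CRE-like TGACGNNA and an NF-kB-like motif, GGG and CC with any 5 bases between them. The genes lie at chr1:186671791-186680423 (PTGS2), chr4:174490175-174522893 (HPGD) and chr1:78490974-78540701 (PTGFR), and PTGER4, the other member with a called or chosen course, lies at chr5:40679915-40746800. HPGD has 2 annotated starts, both given. The positions are chr1:186680424-186680673 (minus strand) for PTGS2, chr4:174522489-174522738 and chr4:174522894-174523143 (minus strand) for HPGD, and chr1:78490724-78490973 (plus strand) for PTGFR.
PTGS2: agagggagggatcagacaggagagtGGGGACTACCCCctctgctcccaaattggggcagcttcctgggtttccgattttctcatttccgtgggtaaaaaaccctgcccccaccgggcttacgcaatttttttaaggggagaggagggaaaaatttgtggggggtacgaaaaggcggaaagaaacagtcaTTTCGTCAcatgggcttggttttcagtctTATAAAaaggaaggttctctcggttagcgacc
HPGD, inner start: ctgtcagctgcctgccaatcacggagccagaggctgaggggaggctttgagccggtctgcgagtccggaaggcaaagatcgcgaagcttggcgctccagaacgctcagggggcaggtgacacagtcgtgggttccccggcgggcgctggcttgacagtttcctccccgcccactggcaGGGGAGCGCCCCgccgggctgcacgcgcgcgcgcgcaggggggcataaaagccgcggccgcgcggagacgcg
HPGD, outer start: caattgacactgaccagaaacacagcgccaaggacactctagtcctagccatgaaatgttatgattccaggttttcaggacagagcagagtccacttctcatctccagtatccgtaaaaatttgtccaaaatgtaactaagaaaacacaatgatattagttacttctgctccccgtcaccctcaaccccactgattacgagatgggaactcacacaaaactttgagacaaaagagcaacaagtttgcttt
PTGFR: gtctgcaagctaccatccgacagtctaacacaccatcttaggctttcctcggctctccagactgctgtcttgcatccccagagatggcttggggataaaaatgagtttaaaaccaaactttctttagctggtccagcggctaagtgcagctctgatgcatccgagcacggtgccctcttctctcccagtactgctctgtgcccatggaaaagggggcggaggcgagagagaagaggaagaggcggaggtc
Of these 4 sequences, that of PTGS2 held TATAAA beginning 32 bases before the start, TGACGNNA beginning 61 bases before it and the NF-kB-like motif at 3 overlapping positions from 225 bases before it. TATAAA stood in 10.7% of 35116 RefSeq promoter windows of this length, TGACGNNA in 6.55% and the NF-kB-like motif in 54.4%. The inner HPGD start had only the NF-kB-like motif, at 3 overlapping positions from 72 bases before it, and the other 2 sequences had none of the motifs. The left and right arms of the RE1 element, searched as TTCAGCACC and as GGACAG, any base and GCC, stood in 0.288% and 0.683% of all windows and in none of the windows of the 10 genes. The remaining motifs searched, the full CRE TGACGTCA, the AP-1 motif TGANTCA and the E-box CACGTG, found in 1.65%, 6.57% and 6.34% of windows, were likewise in none of them.

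PTGS2, the inducible cyclooxygenase, rose over 0 h at both later times and was above its 0 h array in all 3 series. On its brighter probe set, at 0, 24 and 48 h, full-length cells read 926.8, 1422 and 3428, truncated cells 1136, 2539 and 4864, and untreated cells 2357, 4012 and 3789. Every 48 h array was above every 0 h array, while 24 h and 0 h signals overlapped between series, since untreated cells at 0 h already read higher than full-length cells at 24 h. PTGS2 rose by 0.85 ± 0.22 log2 at 24 h (standard error, n = 3 arrays per time; limma adjusted p = 0.013) and by 1.56 ± 0.22 at 48 h (limma adjusted p = 0.00039), which is 2.94-fold. The step from 24 to 48 h was 0.71 ± 0.22 and missed the threshold (limma adjusted p = 0.087). Without the truncated 24 h array the 24 h value was 0.83 and its limma adjusted p 0.051, so that call ended, as it did without the full-length series (0.96, limma adjusted p = 0.061) or the truncated series (0.69, limma adjusted p = 0.086). The 48 h call ended without the filter (limma adjusted p = 0.065) and without the variance trend (limma adjusted p = 0.1), and remained with any 1 series left out (1.29 to 1.99).

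The second probe set of PTGS2 was dimmer and gave the same picture. At the same times full-length cells read 331.5, 450.3 and 1667, truncated cells 396.2, 1063 and 1937, and untreated cells 625.1, 1325 and 1119. Tested among 26480 probe sets, it rose by 0.98 ± 0.27 at 24 h (limma adjusted p = 0.02) and by 1.82 ± 0.27 at 48 h (limma adjusted p = 0.00046). Of all probe sets 13.1% were called at 24 h, 6.62% upward, and 6.22% at 48 h, 3.26% upward. On both probe sets untreated cells were highest at 24 h, whereas both construct series were highest at 48 h.

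**Figure D1:**
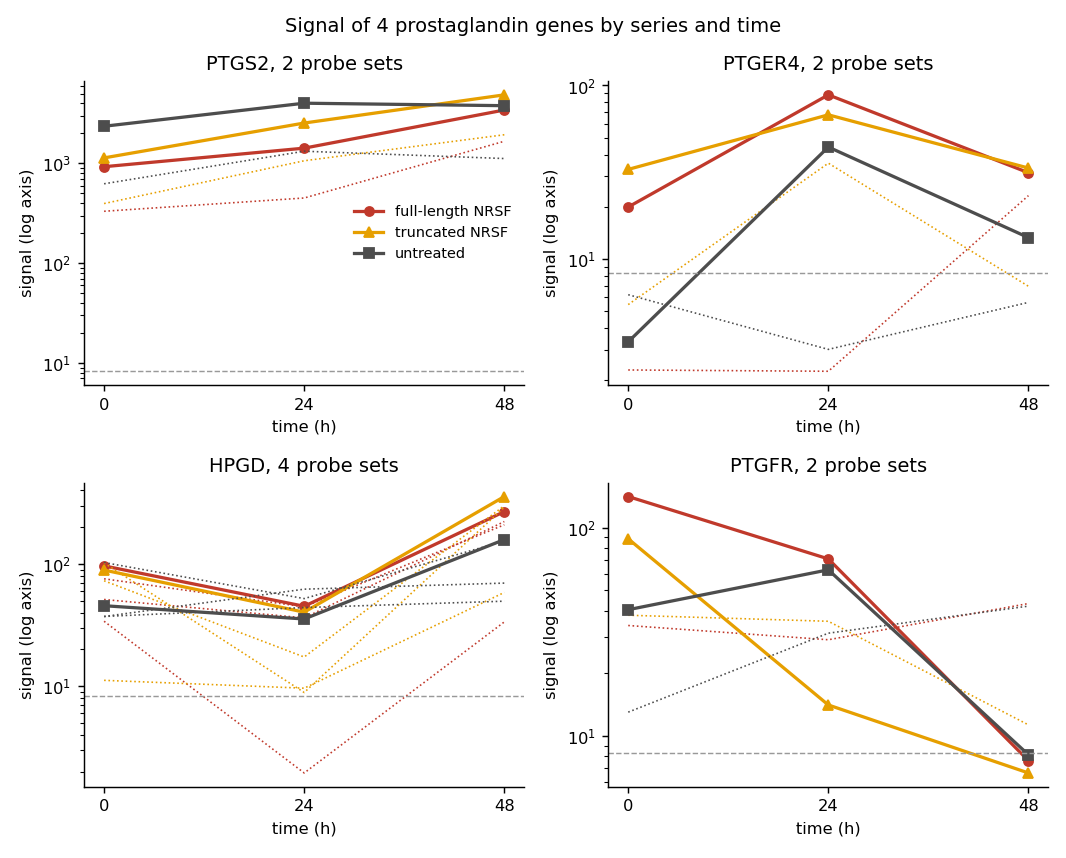
Signal (log axis) against time in hours for PTGS2, PTGER4, HPGD and PTGFR by series (full-length, truncated, untreated). Solid lines with points are the brightest probe set of a gene, dotted lines its other probe sets, and the dashed line is the floor at 8.266. PTGS2 is higher at 48 h than at 0 h in each series. On their brightest probe sets PTGER4 peaks at 24 h, and HPGD dips at 24 h and is highest at 48 h. PTGFR ends below the floor in all 3 series on 1 of its 2 probe sets.

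Of the other synthesis members, PLA2G4A, PTGS1, PTGES and PTGES3, none was called at 24 or 48 h. PLA2G4A, the cytosolic phospholipase A2 that frees arachidonic acid, had overlapping signals at the 3 times: at 0, 24 and 48 h full-length cells read 164.8, 152.6 and 182.2, truncated cells 207.2, 150.4 and 169.4, and untreated cells 237.7, 257.2 and 185.4. Its differences were −0.15 ± 0.23 log2 at 24 h and −0.17 ± 0.23 at 48 h (limma adjusted p = 0.73 at each). PTGS1, the steady cyclooxygenase, ranged from 101 to 185.4 on its brightest probe set and stood at 0.28 ± 0.25 at 24 h and −0.13 ± 0.25 at 48 h (limma adjusted p = 0.53 and 0.82). At 24 h its other 3 probe sets did not move with it: their mean differences were 0.04, −0.67 and −1.26, the last on a dim probe set with 2 arrays at the floor. At 48 h they were negative like the brightest, at −0.31, −0.51 and −1.45. None was called at either time.

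PTGES, the inducible prostaglandin E2 synthase that often rises together with PTGS2, had no called change on its brightest probe set. There, in order of time, full-length cells read 240.1, 269.3 and 228.7, truncated cells 198.4, 146.3 and 315, and untreated cells 247.6, 177.3 and 266.2. The highest and the lowest array both belonged to the truncated series. The differences were −0.25 ± 0.24 log2 at 24 h (limma adjusted p = 0.55) and 0.23 ± 0.24 at 48 h (limma adjusted p = 0.62). The dimmer PTGES probe set had mean differences of 0.97 and 0.82, because the truncated and untreated 0 h arrays read 21.61 and 22.22 while the other 7 arrays read 49.56 to 94.46. With the mean of both probe sets the 24 h value turned to 0.36. PTGES3, a prostaglandin E synthase better known as the HSP90 co-chaperone p23, was the steadiest member, with signals of 5593 to 7244, a difference of −0.01 ± 0.14 at 24 h that turned to 0.12 under quantile normalization, and 0.10 ± 0.14 at 48 h.

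HPGD, the enzyme that inactivates prostaglandins, was lower at 24 h and higher at 48 h. This gene was picked for that course, so its values in time are a description without a test. On its brightest probe set full-length cells read 96.5, 45.07 and 268.4, truncated cells 89.18, 40.33 and 356.5, and untreated cells 45.55, 35.47 and 158.4 at 0, 24 and 48 h. The 24 h arrays lay below all 0 h arrays and the 48 h arrays above all of them. The mean difference over series was −0.87 log2 at 24 h (SD 0.44, n = 3) and 1.76 at 48 h (SD 0.26), and 48 h stood 2.63 above 24 h (SD 0.49), which is 6.17-fold.

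The identifier of that HPGD probe set marks possible cross-hybridization, so its signal is uncertain, but the next 2 probe sets do not carry the mark. On the second, full-length cells read 75.64, 44.59 and 209.4, truncated cells 72.86, 17.32 and 300.2, and untreated cells 102.8, 52.1 and 154.2. Its mean differences were −1.27 at 24 h and 1.37 at 48 h. The third gave −1.09 and 1.51, with 1 series higher at 24 h and all 3 higher at 48 h. Its 24 h differences were −0.50 in full-length, −3.52 in truncated and 0.74 in untreated cells, so the truncated 24 h array weighs most. The fourth and dimmest gave −0.67 and 0.93, and there full-length cells read 33.98 at 0 h and 33.55 at 48 h. All 4 HPGD probe sets were thus higher at 48 h than at 24 h in 3 of 3 series. In untreated cells this difference was only 0.17 log2 on the third and on the fourth.

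SLCO2A1, the transporter that takes prostaglandins up, was dim and irregular. Over the 3 times full-length cells read 18.2, 27.97 and 11.65, truncated cells 35.85, 29.29 and 3.138, and untreated cells 37.97, 19.98 and 72.71. At 48 h the untreated array was the highest and the truncated array, below the floor, the lowest of all 9. The difference over series was −0.20 ± 0.79 at 24 h and −0.61 ± 0.79 at 48 h (limma adjusted p = 0.91 and 0.71), and with the floor at the 40th percentile the 48 h value turned to 0.09.

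Of the receptors, PTGER4 rose at 24 h. PTGER4 and PTGER2 are the prostaglandin E2 receptors that raise cyclic AMP. On the only PTGER4 probe set that passed the filter full-length cells read 19.93, 88.32 and 31.42, truncated cells 32.84, 67.76 and 33.43, and untreated cells 3.331, 44.19 and 13.28 at 0, 24 and 48 h. Every 24 h array was above every 0 h array and every 48 h array. The untreated 0 h array was below the floor, so its difference of 2.42 log2 at 24 h is a lower bound. PTGER4 rose by 1.87 ± 0.60 at 24 h (n = 3 arrays per time; limma adjusted p = 0.042), and at 48 h it stood at 0.46 ± 0.60 (limma adjusted p = 0.71). The call ended without the truncated 24 h array (2.18, limma adjusted p = 0.067) and with any 1 of the 3 series left out (1.60 to 2.28, limma adjusted p 0.089 to 0.23). The other PTGER4 probe set had 7 of 9 arrays at or below the floor, and only its truncated 24 h and full-length 48 h arrays, at 35.67 and 23.18, were above it.

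For PTGER2, in order of time, full-length cells read 169.7, 121.1 and 164.3, truncated cells 114.5, 150.7 and 177.9, and untreated cells 135.9, 100.6 and 105.9. The 3 times overlapped, with differences of −0.18 ± 0.27 log2 at 24 h and 0.08 ± 0.27 at 48 h (limma adjusted p = 0.74 and 0.91).

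PTGFR, the prostaglandin F2 alpha receptor, was below the floor in all 3 series at 48 h on its brighter probe set. There full-length cells read 140.9, 70.77 and 7.625, truncated cells 88.34, 14.1 and 6.655, and untreated cells 40.39, 62.74 and 8.135 at 0, 24 and 48 h. PTGFR was picked for this course, so no test is given. The 48 h arrays were below all others, and the differences from 0 h, −4.09, −3.42 and −2.29 log2, have the floor as their lower end and so are at least of this size. At 24 h the construct series stood at −0.99 and −2.65, and untreated cells at 0.64. Over the 3 series PTGFR stood at 0.499-fold of its 0 h level at 24 h, and without the truncated 24 h array its fitted log2 difference was −0.22. The second PTGFR probe set did not follow. On it full-length cells read 33.92, 28.98 and 43.23, truncated cells 37.99, 35.54 and 11.32, and untreated cells 13.03, 31.16 and 42.02, so at 48 h only the truncated array was low. With the mean of both probe sets the 48 h difference of PTGFR was −1.58, against −3.27 on the brighter one.

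**Figure D2:**
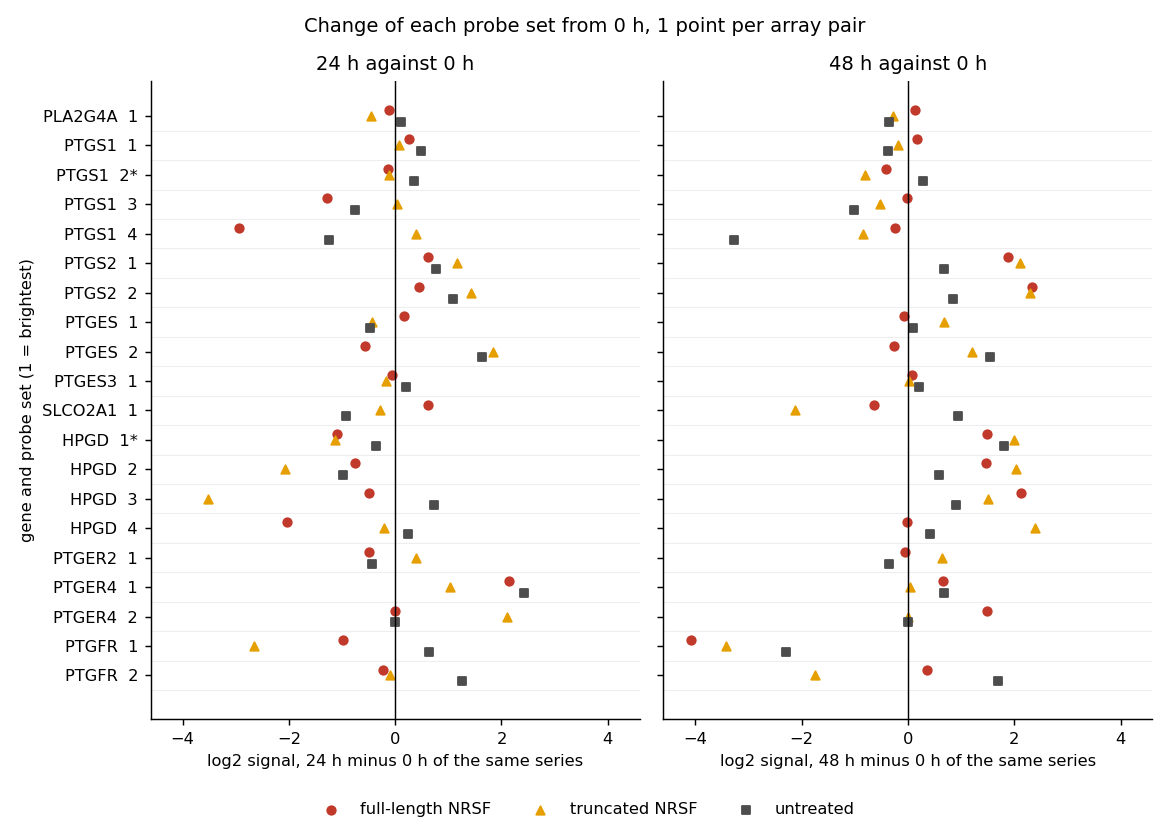
Log2 change of each of the 20 probe sets from the 0 h array of its series, at 24 h (left) and 48 h (right), with 1 point per series. Probe sets of a gene are numbered from the brightest, and an asterisk marks possible cross-hybridization. At 48 h both PTGS2 probe sets lie right of 0 in all series, as do HPGD probe sets 1 to 3, while PTGFR probe set 1 lies at −2.29 or below and PTGFR probe set 2 is spread from −1.75 to 1.69.

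Counted over genes, 2 of the 8 members that were tested in time were called at 24 h, both up, where 16.2% of all genes were called and 8.04% were called up. At 24 h 8.2% of all genes were called down. At 48 h it was 1 of 8, PTGS2, up, where 8.38% of all genes were called, 4.5% up and 3.88% down, and between 24 and 48 h it was 0 of 8 against 3.5%; PTGS2 and PTGER4 had an unadjusted p under 0.05 there. With HPGD and PTGFR included, the 24 h arrays of 1 of 10 genes lay above all 0 h arrays and those of 1 lay below, against 14.3% and 15.4% of all genes. At 48 h these counts were 2 and 1, against 13.6% and 14.2%, and between 48 and 24 h they were 1 and 3, against 10.3% and 10.5%. Since the list was chosen on this contrast, nothing is read from these counts. The median difference of the 10 genes was −0.16 log2 at 24 h and 0.09 at 48 h, against −0.03 and −0.01 over all genes.

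The members also differed at 0 h. The range over the 3 arrays at 0 h was 2.54-fold for PTGS2, 2.12-fold for HPGD, 3.97-fold for PTGER4 after the floor, 3.49-fold for PTGFR and 2.09-fold for SLCO2A1, where the median gene had 1.45-fold. PTGES3, PTGES, PTGS1, PTGER2 and PLA2G4A stood at 1.05- to 1.48-fold. The lower 0 h signals of PTGS2 in both construct series, 926.8 and 1136 against 2357 in untreated cells, enter every change that is counted from 0 h.

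The series description asks what full-length or truncated NRSF does, so the change of each construct series from its own 0 h array was set against that of untreated cells, with 24 and 48 h read as repeats of 1 effect. This contrast played no part in choosing the genes, so all 10 were tested. None was called with limma for full-length NRSF, truncated NRSF or the difference between both, where 0.00725%, 0.0362% and 0.0145% of all genes were called. The model has few residual degrees of freedom and compares arrays at 24 and 48 h, not replicate cultures. Of the 10 genes, 0, 1 and 0 had an unadjusted limma p under 0.05 in these 3 contrasts. Over all 13799 genes these counts were 578, 1055 and 853. The 1 gene of the 10 was PTGS2 with truncated NRSF.

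The PTGS2 change with truncated NRSF exceeded that of untreated cells by 0.90 ± 0.41 log2 (95% interval 0.03 to 1.78; limma adjusted p = 0.62). For full-length NRSF the excess was 0.53 ± 0.41 (−0.35 to 1.40; limma adjusted p = 1). At 48 h alone the excesses were 1.41 with truncated and 1.20 with full-length NRSF, and at 24 h alone 0.39 and −0.15. The 48 h signals themselves, 3428 with full-length and 4864 with truncated NRSF, lay on either side of the untreated 3789, and the 0 h signals were lower in both construct series. The part of those 0 h arrays in the excess was not tested. Full-length minus truncated NRSF was −0.38 ± 0.41 (−1.25 to 0.50), an interval that holds differences of either sign.

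The HPGD difference was −0.53 ± 0.73 for full-length and −0.29 ± 0.73 for truncated NRSF (95% intervals −2.08 to 1.02 and −1.84 to 1.26). The second was 0.10 without the truncated 24 h array. These values come from the probe set marked for possible cross-hybridization. The other HPGD probe sets, from brighter to dimmer, gave 0.55, −0.02 and −1.36 for full-length NRSF. For truncated NRSF they gave 0.18, −1.83 and 0.76, so the sign differed between probe sets. In untreated cells HPGD was also higher at 48 h than at 0 h on its brightest probe set, at 158.4 against 45.55. That 48 h signal was below the 268.4 of full-length and the 356.5 of truncated cells. For PTGFR the differences were −1.72 ± 1.44 and −2.21 ± 1.44, with intervals of −4.76 to 1.33 and −5.25 to 0.84. Without the truncated 24 h array the second was −1.09. Because all 48 h arrays of PTGFR are at the floor, its 48 h part, −1.80 with full-length and −1.13 with truncated NRSF, is set by the 0 h signals alone, 140.9 and 88.34 against 40.39 in untreated cells. PTGER4 stood at −0.15 ± 1.33 with full-length and −1.02 ± 1.33 with truncated NRSF, values that the untreated 0 h array at the floor makes uncertain: with the floor at the 40th percentile they turned to 0.74 and 0.05. SLCO2A1 stood at −0.02 ± 1.72 and −1.21 ± 1.72, the second −2.27 without the truncated 24 h array. Intervals this wide hold changes of 2-fold and more in either direction for HPGD and PTGER4.

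**Figure D3:**
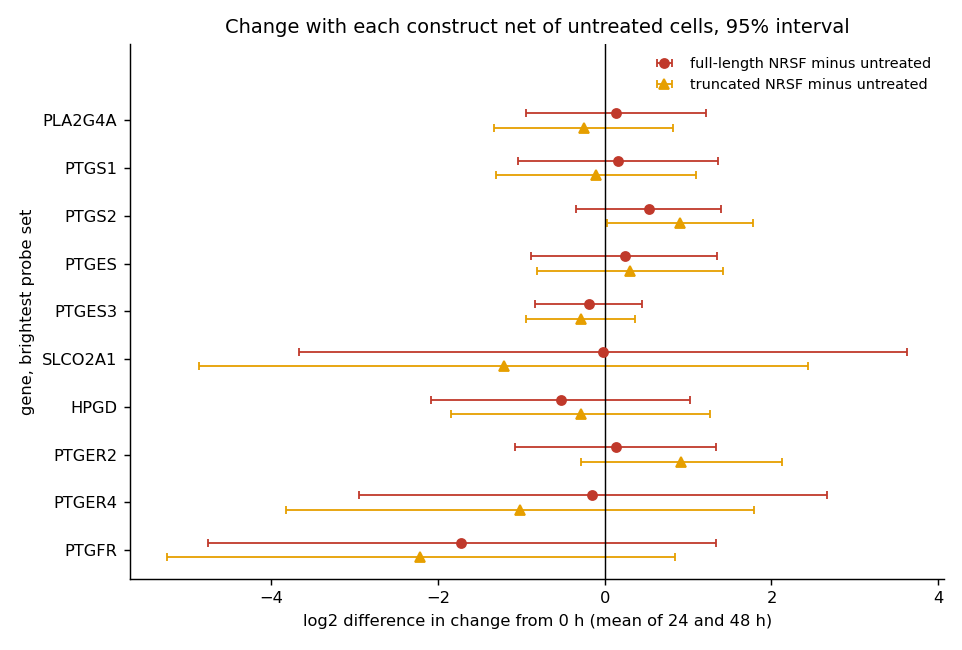
Log2 difference between the change from 0 h in each construct series and that in untreated cells, averaged over 24 and 48 h, for the 10 genes on their brightest probe set. Bars are 95% intervals from limma, and the upper bar of a gene is full-length NRSF. The interval of PTGS2 with truncated NRSF, 0.03 to 1.78, is the only one that leaves out 0, before adjustment over all genes.

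Of 62 other eicosanoid genes listed beside the 10, 56 were read by a probe set with 1 gene name and 42 passed the filter. At 24 h 6 of the 42 fell and 0 rose (14.3% called), where 16.2% of all genes were called and 8.2% fell. PRXL2B, a synthase of prostaglandin F2 alpha and its amides, fell by 1.32 ± 0.33 log2 (limma adjusted p = 0.012). ABCC4, which exports prostaglandins, fell by 0.96 ± 0.20 (limma adjusted p = 0.0034), and PTGFRN, a membrane protein that binds PTGFR, fell by 0.75 ± 0.21 (limma adjusted p = 0.022). PTGR3, a reductase of the product that HPGD makes, fell by 0.71 ± 0.18, ANXA1, an inhibitor of phospholipase A2 activity, fell by 0.71 ± 0.16, and LTA4H, which makes leukotriene B4, fell by 0.47 ± 0.16. Each of the 6 was lower in 3 of 3 series. Several of these calls ended when an array or a series was left out, which also leaves fewer arrays for the test. Without the truncated 24 h array PTGFRN stood at −0.63 (limma adjusted p = 0.11) and LTA4H at −0.43 (limma adjusted p = 0.15), and both calls also ended with any 1 of the 3 series left out (−0.92 to −0.60 and −0.58 to −0.37). Without the full-length series the calls of ABCC4 (−0.79), PTGR3 (−0.76) and ANXA1 (−0.65) ended, without the truncated series that of PRXL2B (−1.31), and without untreated cells those of PRXL2B (−1.04) and PTGR3 (−0.54). With the mean of all probe sets ABCC4 stood at −0.46 and PTGR3 at −0.36, neither called.

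At 48 h 1 of the 42 rose and 1 fell (4.76% called), where 8.38% of all genes were called. PTGFRN was the gene that fell, by 1.23 ± 0.21 log2 (limma adjusted p = 0.002), a call that ended with the mean of all its probe sets (−0.87, limma adjusted p = 0.06). In order of time full-length cells read 340.6, 257.7 and 167.9, truncated cells 332.1, 161 and 130.5, and untreated cells 346.9, 198.8 and 138.7, so the 48 h arrays were the lowest of each series. AKR1C1, an aldo-keto reductase with near-identical relatives whose signals cannot be kept apart with certainty, rose by 0.94 ± 0.21 (limma adjusted p = 0.012). The value was 0.37 (limma adjusted p = 0.66) with the mean of all its probe sets and 0.61 (limma adjusted p = 0.12) without the truncated series, and the call also ended without the full-length series (0.96). Full-length cells read 324.9, 284.5 and 608.5, truncated cells 311.2, 260.5 and 935.4, and untreated cells 496.6, 258.6 and 621.4. AKR1C1 was lower at 24 h than at 0 h and highest at 48 h in each series. The synthases HPGDS, PTGIS and TBXAS1 were among the 14 genes below the filter and were not tested. PTGDS, the other prostaglandin D2 synthase, was tested and stood at 1.17 ± 0.67 at 24 h and 0.31 ± 0.67 at 48 h (limma adjusted p = 0.28 and 0.83).

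**Figure D4:**
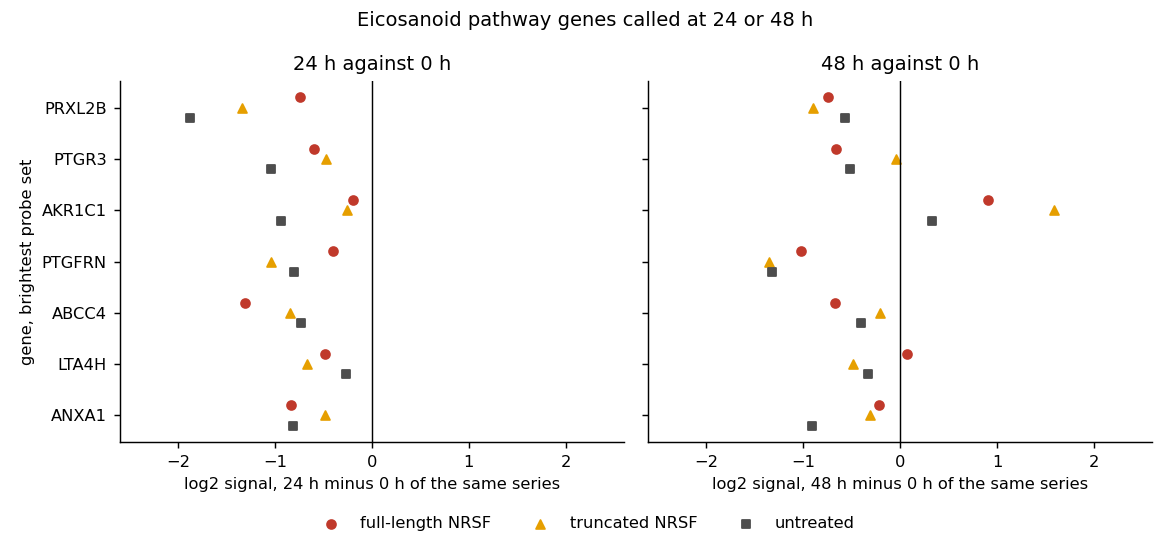
Log2 change from the 0 h array of the same series for the 7 eicosanoid genes called at 24 or 48 h, with 1 point per series at 24 h (left) and 48 h (right). At 24 h all points lie left of 0. At 48 h PRXL2B, PTGR3, PTGFRN, ABCC4 and ANXA1 remain left of 0 in each series. LTA4H then lies on both sides of 0 and AKR1C1 right of it.

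Genes with the most similar pattern were sought by the mean absolute difference between log2 signals, each gene centred on its own mean over the 9 arrays. For HPGD these were ODAD2, CEMIP and ATP1B1 at 0.34, 0.37 and 0.38 log2, where the median gene stood at 1.07. For CEMIP full-length cells read 1345, 701.5 and 3097, truncated cells 720.3, 727.6 and 3467, and untreated cells 562.9, 785.7 and 1554, so it lacked the 24 h dip in truncated and untreated cells. For PTGFR they were ARHGEF19, GLDN and GPR63 at 0.51, 0.54 and 0.59, against a median of 1.48. At 48 h ARHGEF19 was below the floor in all 3 series, at 4.796, 6.125 and 7.228. GLDN was below it in truncated and untreated cells (7.497 and 4.06), GPR63 in full-length and untreated cells (3.737 and 5.115). PTGFR was below it too, and signals below the floor are set to it, so the likeness at 48 h rests in part on the floor. For PTGS2 they were GARIN4 at 0.29, NPY, a neuropeptide gene, at 0.29 and VIP, another, at 0.30, against 0.80. For NPY full-length cells read 139, 270.8 and 750.3, truncated cells 286.7, 402.8 and 707.1, and untreated cells 356.9, 583.2 and 919.8. In untreated cells NPY was thus highest at 48 h, where PTGS2 and GARIN4 were highest at 24 h. VIP read 439.1, 398.3 and 413.1 in untreated cells, so it lacked the rise of PTGS2 there. For PTGES they were SIRT3, NDUFS6 and TCTA at 0.08, 0.08 and 0.09, against 0.42.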

How the data were processed

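RNA of SK-N-AS cells was measured on 9 Affymetrix arrays, 1 for each of 3 series at 0, 24 and 48 h. The deposited values are linear signal intensities of 54675 probe sets, which the authors obtained from GCOS according to the submitters' processing notes; no version or setting is given in the sources used. The mean after removal of the outer 2% of values was 149.98 on every array, so the authors' scaling was kept. A floor at the 25th percentile (8.266) was set and log2 taken. Of the probe sets, 41091 had 1 gene name (41037 through Entrez ID to RefSeq, GRCh38.p14). Left out were 1801 with several names, 11777 not in the annotation and 62 controls. The controls were counted on their own and overlap the other groups left out. The probe set with the highest mean stood for each of 19775 genes, and 13799 with a mean log2 above 4.2, the 40th percentile, were tested; 26480 probe sets were tested in a second fit.

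limma 3.58.1 (R 4.3.3, data.table, version 1.17.8) fitted series and time, and then added 1 term per construct for the later arrays, with lmFit and eBayes (variance trend, two-sided, Benjamini-Hochberg over all genes); it was tested on simulated data. HPGD and PTGFR got no test in time. The members and lists were chosen with earlier results of these data known. Named pathway genes are those called at 24 or 48 h. Alternatives were another floor, other filters, the mean of all probe sets, quantile normalization, no variance trend, and arrays or series left out. The number of arrays limits precision.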

Additional observations from a re-analysis of the deposited data

Results flagged for a closer look

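The differences of PTGER2 from 0 h had opposite signs in different series: both later arrays of the truncated series were above its 0 h array, by 0.40 log2 at 24 h and 0.64 at 48 h, and both of the untreated series were below theirs, at −0.43 and −0.36. The mean difference was 0.91 for truncated NRSF minus untreated cells and did not pass the test of that difference (limma adjusted p = 0.76). In the full-length series PTGER2 stood at −0.49 and −0.05, and full-length minus truncated NRSF was −0.78 (limma adjusted p = 0.9). The truncated 0 h array, at 114.5, was the lowest of the 3 at that time.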

How the results depend on the processing

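The 24 h count of called members, 2 in the report, was 0 without the filter, with probe sets averaged and without the truncated 24 h array, 1 with the filter at the 60th percentile and without the variance trend, and 0 to 1 with a series left out. The 48 h count, 1, was 0 without the filter and without the variance trend. The count between 24 and 48 h, 0, was 0 to 1 with a series left out: without untreated cells PTGS2 was called at 1.10 (limma adjusted p = 0.0051). PTGS2 kept its 48 h call in 9 of 11 alternatives (1.29 to 1.99; limma adjusted p 1.9e-05 to 0.1) and its 24 h call in 5 of 11 (0.69 to 0.96; 0.0065 to 0.18), and PTGER4 kept its 24 h call in 4 of 9 (1.33 to 2.28; 0.026 to 0.23). No alternative that was run called a member in a construct contrast. The pathway count at 24 h, 6, was 2 without the filter, 3 with the mean of all probe sets, 1 without the variance trend and 1 to 3 with a series left out; at 48 h, 2 turned to 1, 1 and 0 under these 3 settings and to 1 to 3 with a series left out. PTGFRN kept its 48 h call in 9 of 11, AKR1C1 in 6 of 11, ABCC4 its 24 h call in 9 of 11, PRXL2B and ANXA1 in 7, PTGR3 and PTGFRN in 6 and LTA4H in 3. The pathway alternatives and the HPGD value without the marked probe set (1.37 at 48 h) were added after the data were seen.

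Signs that turned belong to uncalled values. At 24 h PTGS1 was −0.41 and PTGES 0.36 with the mean of all probe sets. PTGES3 was 0.12 with quantile normalization, 0.05 without the truncated 24 h array and −0.11 to 0.07 with a series left out, and SLCO2A1 −0.61 to 0.16. At 48 h SLCO2A1 was 0.09 with the floor at the 40th percentile and −1.38 to 0.15 with a series left out, and PTGER2 −0.20 to 0.29. Net of untreated cells, without the 48 h arrays PTGS2 was −0.15, SLCO2A1 1.55 and PTGER2 −0.05 with full-length NRSF and SLCO2A1 0.63 with truncated NRSF. With the higher floor SLCO2A1 was 0.06 and PTGER4 0.74 with full-length NRSF and PTGER4 0.05 with truncated NRSF, and HPGD with truncated NRSF was 0.10 without the truncated 24 h array and 0.20 without the 24 h arrays. The cause was not tested. No paired analysis was possible beyond the blocks by series because the labels give no replicate numbers; the arrays of 1 series are already compared with each other through the series term of every model, which is the only pairing the labels give. PTGER4, SLCO2A1 and PTGFR have arrays at the floor, which limits what their differences can show.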
